A study of Homo sapiens with 3 samples.

Results

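Chromosome 17 was described through every call that short nascent strand sequencing (SNS-seq) placed on it in HCT116 cells, with its short arm and its long arm separated at position 24000000 of hg19. SNS-seq maps the starts of DNA replication by purifying short nascent strands that keep their RNA primer and resist lambda exonuclease. The cells were HCT116, an established human colorectal cancer line, wild type, untreated and grown in RPMI medium, in 3 replicates that form 1 group. In every replicate EPIC2 called broad regions of enriched signal, and MACS2 called narrow peaks, of which the single-base summits are given. Chromosome 17 held 18409 of the 247794 EPIC2 regions of the series, or 7.43%, and 22319 of the 443480 summits, or 5.03%. Of these, 3834 EPIC2 regions and 5362 summits lay on the short arm, and 14575 EPIC2 regions and 16957 summits on the long arm. An EPIC2 region that held a summit of its own replicate is called a common region. The design held no contrast between conditions, so the comparisons are between the arms and between 5 Mb bins within each replicate.

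Replication of a human chromosome starts at many origins, which are licensed in G1 by loading of the MCM helicase and of which a part fires in S phase. Origins that fire often tend to lie in gene-rich, early-replicating chromatin near active promoters, while gene-poor stretches hold fewer. Chromosome 17 is among the gene-dense human chromosomes. Its long arm carries NF1, ERBB2 and the HOXB cluster. CEP95 and DDX5, at which the study assayed single origins, also lie on the long arm. Karyotypes described for HCT116 include extra material of the distal long arm of chromosome 17. DNA copy number was not measured, and its part in the results was not tested.

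The replicates differed in how much was called. On chromosome 17 EPIC2 gave 8333, 4219 and 5857 regions in replicates 1, 2 and 3, and MACS2 gave 10943, 3199 and 8177 summits. Replicate 2 stood apart, as the only replicate with more EPIC2 regions than summits on the chromosome. Common regions numbered 6437, 1981 and 4292. Read depth is unknown, as no read numbers come with the calls, so levels were compared within a replicate and each arm difference is given for every replicate. No call of any replicate lay between 22261586 and 25263000, a stretch of 3001415 bases that holds the split. The short arm had 23 and the long arm 57 windows of 1 Mb with a call, and densities are per window of this kind.

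Common regions were denser on the long arm in every replicate. The short arm held 67.2, 15.6 and 37.7 common regions per Mb in replicates 1, 2 and 3, and the long arm held 85.8, 28.5 and 60.1. The long arm was therefore the denser one by 1.28, 1.83 and 1.59 times, although the levels of the arms overlapped between replicates because the replicates differed so much in the number of calls. When each replicate was set against its own genome-wide density, the overlap between arms disappeared. Short-arm values were then 1.90, 1.77 and 1.92 times the genome, 1.86 ± 0.0805 (SD, n = 3), and long-arm values were 2.43, 3.24 and 3.06 times, 2.91 ± 0.426 (SD, n = 3). Both arms thus lay above the genome's density in all replicates.

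The arm difference was tested with limma on the log2 ratio of the densities, in a fit that also held 18 other chromosomes, each split at its longest stretch without calls. For chromosome 17 the log2 ratio of long to short arm was 0.66 ± 0.12 (SE), a 1.58-fold difference, with a Benjamini-Hochberg adjusted p of 0.0140 over the 19 chromosomes. A denser far side was called on 42.1% of the chromosomes tested and a less dense one on 26.3%, 68.4% in either direction, so an arm difference of this kind was common. Chromosome 17 had the fourth-highest ratio of the 19. Over 3 replicates alone, the exact sign-flip permutation test cannot give a 2-sided p below 0.25, which was its value here. The call was lost without replicate 2 (adjusted p = 0.0741) and without replicate 3 (adjusted p = 0.0632) by limma, with log2 ratios of 0.54 and 0.64. The methods describe triplicate experiments but not whether each had its own culture, and p-values measure the spread between these samples.

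**Figure D1:**
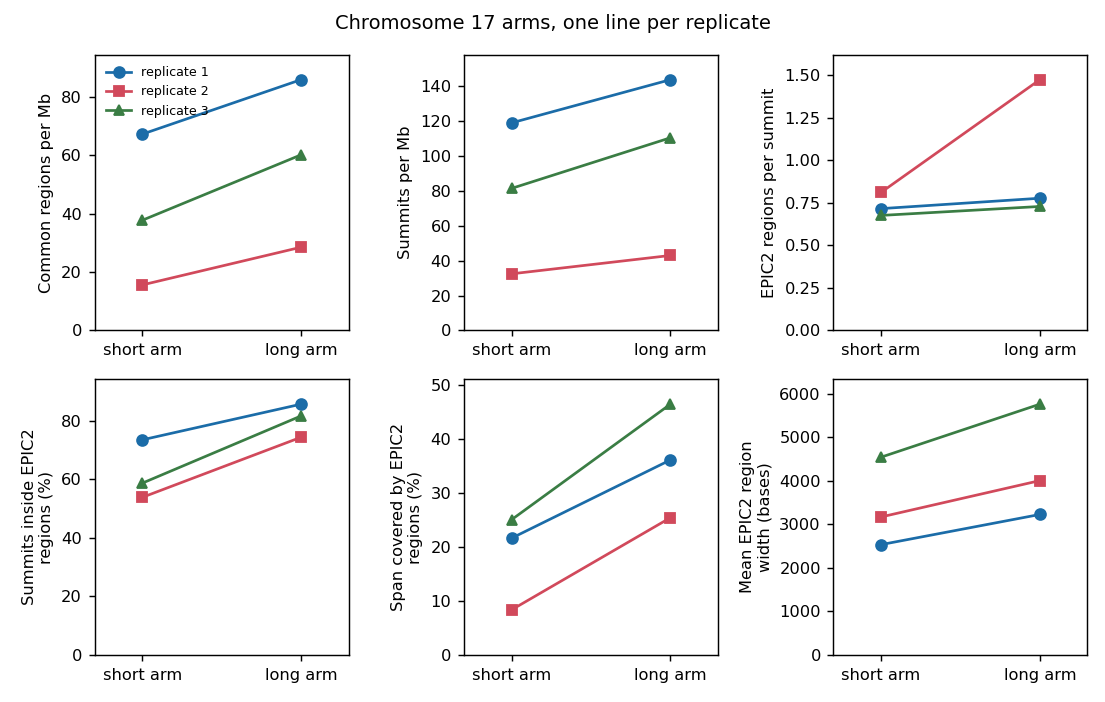
Values of the short and long arm of chromosome 17, with 1 line per replicate. Panels show common regions and summits per Mb, EPIC2 regions per summit, the percent of summits inside EPIC2 regions, the percent of span covered and the mean width in bases. All 18 lines rise from the short to the long arm, and the ratio of EPIC2 regions to summits rises steeply in replicate 2, from 0.811 to 1.47.

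Summits and EPIC2 regions were each denser on the long arm in every replicate. Summits numbered 119, 32.5 and 81.5 per Mb on the short arm and 144, 43.0 and 111 on the long arm in replicates 1, 2 and 3. The log2 ratio of long to short arm was 0.40 ± 0.07 (SE), or 1.32-fold, with a limma adjusted p of 2.31e-06, where a denser far side was called on 31.6% of chromosomes and a difference in either direction on 57.9%. That p-value draws on a spread between replicates that limma shares over the chromosomes. Over the 3 replicates alone, the exact sign-flip permutation p for summits was 0.25, the smallest possible. EPIC2 regions numbered 85.3, 26.3 and 55.1 per Mb on the short arm and 112, 63.4 and 80.5 on the long arm. Their log2 ratio was 0.76 ± 0.21 (SE), or 1.69-fold, with a limma adjusted p of 0.0455, where 42.1% of chromosomes were called in that direction and 73.7% in either. Replicate 2 showed the largest EPIC2 difference, 2.41 times, against 1.31 and 1.46 times in replicates 1 and 3. Without the bin at 20 to 25 Mb, which holds the split, the EPIC2 call was lost (limma adjusted p = 0.0739, log2 ratio 0.64), as it was without replicate 3, where the log2 ratio was larger (0.85, adjusted p = 0.140).

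The number of EPIC2 regions per summit was nearly level between the arms in replicates 1 and 3. It was 0.716 on the short and 0.777 on the long arm in replicate 1, and 0.676 and 0.728 in replicate 3. In replicate 2 it was 0.811 and 1.47, a ratio of 1.82. The limma log2 ratio was 0.36 ± 0.19 (SE) with an adjusted p of 0.150, so the arm difference did not exceed the spread between replicates, while 26.3% of chromosomes were called with a higher far side and 42.1% in either direction. Leaving out replicate 2 lowered the log2 ratio to 0.11, and leaving out replicate 3 raised it to 0.49 with an adjusted p of 0.0454. The size of this difference therefore rested on replicate 2.

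EPIC2 regions covered much more of the long arm, by a measure added after the data were seen. They covered 21.6%, 8.35% and 25.02% of the short arm and 36.1%, 25.4% and 46.4% of the long arm in replicates 1, 2 and 3, a difference of 17.6 ± 3.48 percentage points (SD, n = 3). The log2 ratio was 1.103 ± 0.19 (SE), or 2.15-fold, with a limma adjusted p of 0.00594, where a higher far side was called on 42.1% of chromosomes and a difference in either direction on 73.7%. The covered share is the density of EPIC2 regions times their mean width. Its log2 ratio is therefore the sum of theirs, 0.76 for density and 0.34 for mean width, and not a separate result. Without replicate 3 the adjusted p was 0.105, with a log2 ratio of 1.197. Taken whole, the chromosome was covered to 31.9%, 20.5% and 40.2%, which ranked second, first and first among the 23 chromosomes, with chromosome 19 above it in replicate 1.

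Regions of the long arm had larger mean widths in every replicate, while the medians differed little. Median EPIC2 widths were 2000, 3000 and 3800 bases on the short arm and 2400, 3400 and 4000 bases on the long arm, which is at most 2 steps of the 200-base grid of EPIC2. The log2 ratio of the medians was 0.17 ± 0.05 (SE) with a limma adjusted p of 0.2022, and limma called 0 of the 19 chromosomes for median width, 3 of them at an unadjusted p under 0.05. Mean widths were 2534, 3169 and 4542 bases on the short arm and 3226, 4004 and 5759 on the long arm. The mean was 1.27, 1.26 and 1.27 times larger on the long arm, with a limma adjusted p of 0.00414. Mean width was an alternative to the planned median, and the share of chromosomes called by it is not given. Regions of at least 10 kb made up 1.07%, 0.825% and 5.05% of short-arm regions and 3.81%, 3.10% and 12.9% of long-arm regions. The long arm thus held the larger share of such wide regions in every replicate.

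Neighbouring common regions were closer together on the long arm in each replicate. The median distance between midpoints was 8400, 28900 and 13700 bases on the short arm and 8000, 18700 and 11150 bases on the long arm. The difference was small in replicate 1 and larger in the others. By limma the log2 ratio was -0.33 ± 0.14 (SE) with an adjusted p of 0.125, and 0 of the 19 chromosomes were called, 10 of them at an unadjusted p under 0.05. Between facing edges the median gap was 5400, 26400 and 8200 bases on the short and 4000, 14100 and 4200 bases on the long arm. This log2 ratio of -0.77 passed with a limma adjusted p of 0.00504, as an alternative to the planned distance between midpoints. The share of chromosomes called by it is not given. Edge gaps also shrink where regions are wider, and the part of width was not tested.

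Summits fell inside EPIC2 regions more often on the long arm, by a measure added after the data were seen. The share was 73.5%, 53.8% and 58.7% on the short arm and 85.7%, 74.3% and 81.6% on the long arm in replicates 1, 2 and 3, a difference of 18.6 ± 5.65 percentage points (SD, n = 3). The log2 ratio was 0.39 ± 0.07 (SE) with a limma adjusted p of 0.0130, where a higher far side was called on 31.6% of chromosomes and a difference in either direction on 47.4%. Without replicate 2 the log2 ratio was 0.35 and the adjusted p was 0.0691. The covered share moved with this result, and the inside share divided by the covered share was 3.40, 6.45 and 2.34 on the short arm and 2.38, 2.93 and 1.76 on the long arm. Its part in the difference was not tested.

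Seen from the regions, by a measure also added after the data were seen, the arms did not differ in 1 direction. An EPIC2 region held a summit of its own replicate in 78.8%, 59.1% and 68.4% of cases on the short arm and in 76.8%, 44.9% and 74.6% on the long arm. Replicates 1 and 2 were lower and replicate 3 higher on the long arm, and limma gave an adjusted p of 0.853 and called 0 of the 19 chromosomes, 1 of them at an unadjusted p under 0.05. In replicate 2 the long arm had 1990 EPIC2 regions without a summit, more than the 1480 of replicate 1 and the 1165 of replicate 3, although replicate 2 had the fewest regions there. Common regions of the long arm held 1.44, 1.12 and 1.502 summits on average, against 1.303, 1.12 and 1.27 on the short arm, so replicate 2 showed next to no difference in this measure.

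Scores were higher on the long arm within each replicate. Ranked among all regions of chromosomes 1 to 22 and X in the replicate, EPIC2 scores of the short arm had a median percentile of 58.8, 51.5 and 59.5, and those of the long arm 70.2, 62.7 and 74.4, a difference of 12.5 ± 2.08 points (SD, n = 3). Summit scores had a median percentile of 52.3, 56.8 and 43.9 on the short and 59.1, 58.0 and 55.4 on the long arm, a difference of 6.51 ± 5.15 points (SD, n = 3). Both differences pointed the same way in all 3 replicates, and each had an exact sign-flip permutation p of 0.25, the smallest possible. Regions were also wider on the long arm, and the part of width in this result was not tested.

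The chromosome was next divided into 17 bins of 5 Mb, numbered from the short-arm end, each set against the density of its replicate's genome in a limma fit over 590 bins. Bins 1 to 4 lie on the short arm, bin 5 holds the split and had calls in only 3 windows, and bins 6 to 17 lie on the long arm. Bin 17 ends with the chromosome, so its last window is only partly filled and its density is understated. The stretch without calls from 22261586 to 25263000 likewise takes part of the last window of bin 5 and of the first window of bin 6. The densities of these bins are understated too. The median density of all 590 bins was 0.792 times the genome's density.

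Common-region density was called higher than the genome in 14 of the 17 bins and lower in none of them, where 22.4% of all bins were called higher, 42.9% lower and 65.3% in either direction. These were 3 of the 4 short-arm bins and 11 of the 12 long-arm bins. Over all 4 short-arm bins the median fold was 2.12, and over all 12 long-arm bins it was 2.79. The 3 bins without a call were bin 3 at 10 to 15 Mb, bin 5 at 20 to 25 Mb and bin 7 at 30 to 35 Mb. The call of bin 11, at 50 to 55 Mb, was lost on leaving out any 1 replicate, and bin 7 was called higher without replicate 2. Bin 3 had 0.985, 0.706 and 0.743 times the genome's density in replicates 1, 2 and 3, the lowest of the 4 short-arm bins in every replicate. The short arm thus held a sparse stretch between denser bins, with its end, bin 1, at 2.89, 2.78 and 3.04 times.

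On the long arm, mean density over replicates was lowest in bins 7 and 11, at 1.303 and 1.47 times. Bin 7 had 1.45, 0.933 and 1.53 times the genome's density, and bin 11, at 50 to 55 Mb, had 1.18, 1.64 and 1.61 times. In replicate 2, bin 6 was also below bin 11, at 1.502 times. Bin 11 was a dip between dense neighbours. Bin 10, at 45 to 50 Mb, had 2.94, 4.69 and 3.82 times, and bin 12, at 55 to 60 Mb, had 3.27, 3.66 and 4.59 times. Bin 12 was the densest of the chromosome in replicates 1 and 3, while in replicate 2 the densest was bin 16, at 75 to 80 Mb, with 6.28 times against 2.89 and 3.14 times in the others. The replicate profiles most alike over the 17 bins were those of replicates 1 and 3, with a Pearson correlation of common regions per Mb of 0.942, against 0.752 for replicates 1 and 2 and 0.720 for replicates 2 and 3. These are descriptions over neighbouring bins of the same libraries.

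**Figure D2:**
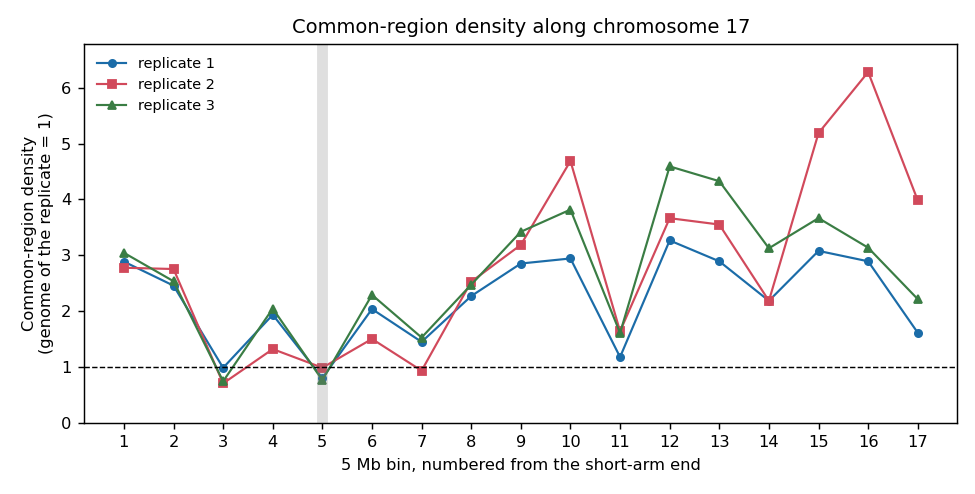
Density of common regions in 17 bins of 5 Mb along chromosome 17, relative to the genome of each replicate (dashed line at 1), with 1 line per replicate and a grey band at bin 5, which holds the split. All replicates dip at bins 3, 5, 7 and 11, and replicate 2 reaches 6.28 in bin 16. The density of bin 5 is understated, as its last window is only partly filled.

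The ratio of EPIC2 regions to summits varied along the long arm in all replicates, and in replicate 2 it was higher throughout from 45 Mb on. In replicate 2 it lay between 0.577 and 0.920 in the short-arm bins, at 0.730, 0.861 and 0.890 in bins 6 to 8, at 1.1 in bin 9 and between 1.39 and 1.90 in bins 10 to 17. All 8 bins from 45 Mb on were above every bin before 45 Mb in that replicate. In replicate 1 the bins from 45 Mb on lay between 0.584 and 0.890 and in replicate 3 between 0.602 and 0.800, inside the range of the bins before. Replicates 1 and 3 followed each other over the 17 bins, with a Pearson correlation of 0.890, against 0.373 and 0.348 for replicate 2 with each of them.

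The long arm was therefore also described on either side of 45 Mb, a boundary chosen after these values were seen, so no test is given. The distal part had 1.84 times as many EPIC2 regions per summit as the proximal part in replicate 2, against 0.988 and 0.959 times in replicates 1 and 3. EPIC2 regions per Mb were 2.56 times as many on the distal as on the proximal part in replicate 2, and 1.19 and 1.33 times as many in the others. Summits per Mb differed less between replicates, with 1.21, 1.39 and 1.39 times as many on the distal part in replicates 1, 2 and 3. In this contrast of distal to proximal part, replicate 2 thus stood apart in EPIC2 regions per Mb and not in summits per Mb. The contrast in common regions per Mb was also largest in replicate 2. By count, replicate 2 had the fewest EPIC2 regions and the fewest summits on the distal part. High arm ratios in replicate 2 were not confined to chromosome 17. Its log2 ratio of far to near side in EPIC2 regions per summit was 1.15 on chromosome 8 and 1.05 on chromosome 10. It was 0.86 on chromosome 17 and lower on the other chromosomes tested. The share of distal EPIC2 regions that held a summit was 42.4% in replicate 2, against 76.9% and 75.7% in replicates 1 and 3.

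Against the genome's ratio, 11 of the 17 bins were called higher by limma and 1, bin 3, lower, where 11.4% of all 590 bins were called higher, 46.1% lower and 57.5% in either direction. Of the higher ones 2 lay on the short arm and 9 on the long arm. Bin 3 had 0.439, 0.577 and 0.277 EPIC2 regions per summit, a log2 ratio to the genome of -0.49 ± 0.15 (SE) with an adjusted p of 0.0426. The calls depended on each replicate. Without replicate 1 or without replicate 2 limma called 0 of the 17 bins, with 7 and 14 of them at an unadjusted p under 0.05, and of all bins it then called 2.03% and 0%. The log2 ratios were not smaller throughout, as bin 12 had 0.93 with all replicates, 1.07 without replicate 1 and 0.68 without replicate 2, and bin 3 had -0.55 and -0.59 in these fits. Without replicate 3, 9 bins were called, all higher, where 50.3% of all bins were called. The calls of bins 1, 2, 3 and 8 were lost in that limma fit, with bin 3 at -0.33 and an adjusted p of 0.145.

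**Figure D3:**
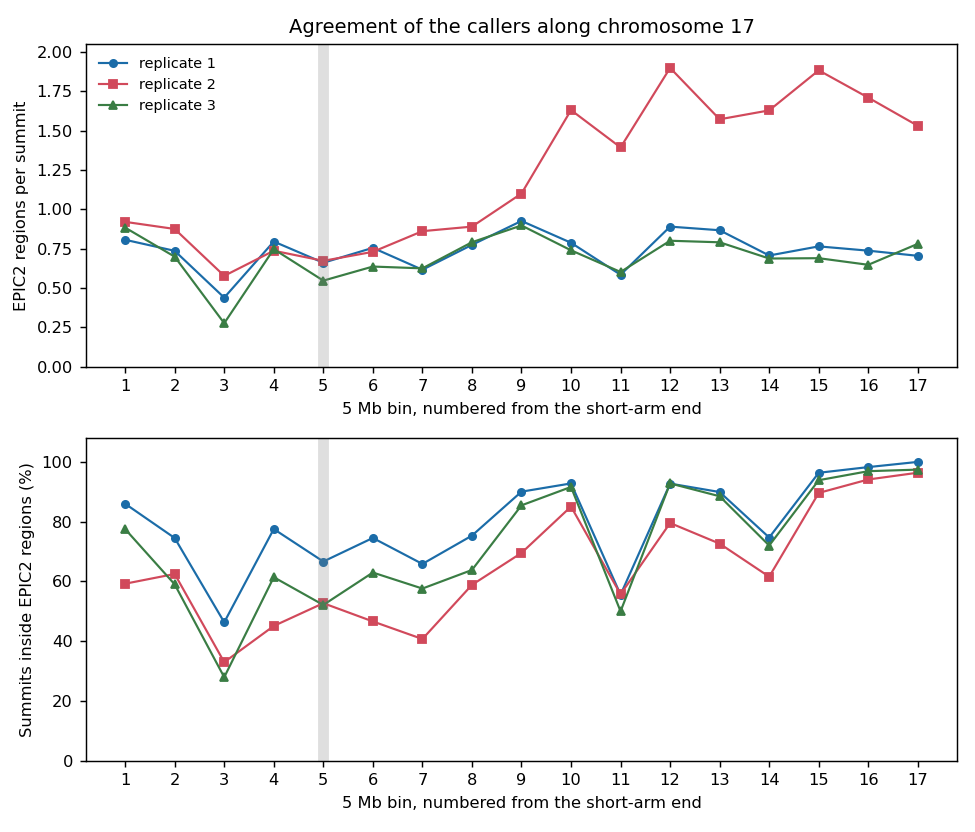
EPIC2 regions per summit (upper panel) and the percent of summits inside EPIC2 regions (lower panel) in the 17 bins of 5 Mb, with 1 line per replicate and a grey band at bin 5. Replicate 2 leaves the others from bin 10 on in the upper panel, while in the lower panel the 3 lines share their dips and exceed 89% in bins 15 to 17.

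The share of summits inside EPIC2 regions had much the same profile in all replicates. It was lowest in bin 3, at 46.3%, 33.0% and 28.0%, and reached 98.3%, 94.1% and 96.9% in bin 16. In bin 17 it was 100%, 96.4% and 97.4%. Nearly every summit near the end of the long arm thus lay in a region, and in bin 16 regions covered 68.1%, 50.8% and 80.2% of the span. In bin 11 the share was 55.6%, 55.7% and 50%, with 8.33%, 13.96% and 14.8% of the span covered. Pearson correlations between replicates over the 17 bins were 0.877, 0.977 and 0.909.

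Merging common regions over replicates gave 6232 regions on chromosome 17, of which 3229 came from 2 or more replicates, named consensus origins here. The long arm held 2531 of them, or 78.4% (exact 95% binomial interval 76.9% to 79.8%, for counting error only), on 71.25% of the windows with calls. Per Mb there were 30.3 on the short and 44.4 on the long arm. Origins found in all 3 replicates made up 21.2% of the short-arm set (148 origins, 18.2% to 24.4%) and 33.5% of the long-arm set (847 origins, 31.6% to 35.3%). Agreement of replicates was thus more frequent on the long arm, where regions also covered more of the span. The 2 intervals are again binomial, for counting error only, and do not measure the spread between replicates. Replicate 1 contributed to 99.0% of short-arm and 98.5% of long-arm consensus origins, replicate 2 to 40.8% and 45.4%, and replicate 3 to 81.4% and 89.6%.

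Pairs of replicates showed the same order. Between 17.99% and 84.1% of the common regions of a replicate overlapped one of another replicate on the short arm, and between 31.1% and 88.8% on the long arm. The long-arm share was the higher one in 6 of 6 directed comparisons, by 4.71 to 26.6 percentage points. The smallest gap was for regions of replicate 2 in replicate 1, with 84.1% and 88.8%, and the largest for regions of replicate 2 in replicate 3, with 46.4% and 73.0%. Common regions of replicate 3 covered 17.5% of the short and 37.8% of the long arm, and those of replicate 1 covered 17.3% and 29.9%. The part of this coverage in the overlap was not tested.

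**Figure D4:**
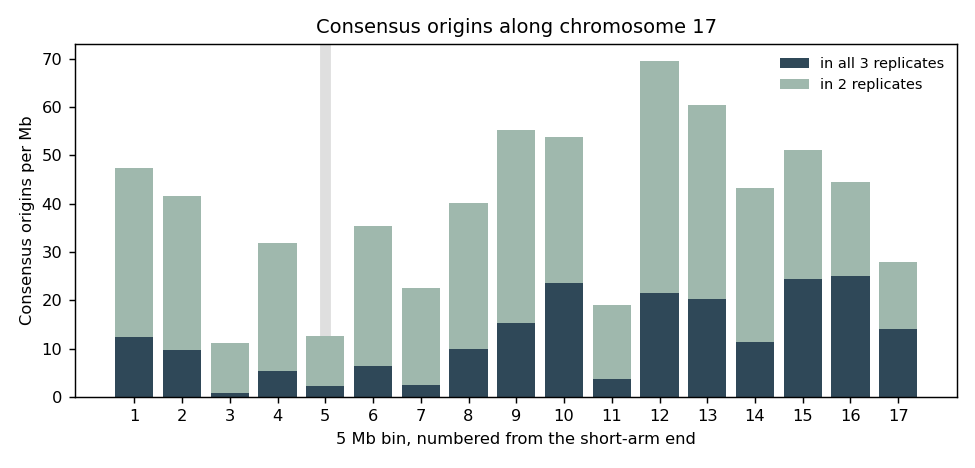
Consensus origins per Mb in the 17 bins of 5 Mb, split into those found in all 3 replicates (dark) and in 2 (light), with a grey band at bin 5. Bins 12 and 13 are the highest, at 69.6 and 60.4 per Mb, and the dark part is largest in bin 16.

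Consensus origins were most frequent in bins 12 and 13 of the long arm, while the share found in all replicates was highest in bins 15 to 17. Bin 12 had 69.6 per Mb and bin 13 had 60.4, whereas bin 16 had 44.4. In bin 16, 56.3% of the consensus origins were found in all 3 replicates, and in bins 15 and 17 the shares were 47.7% and 50%. Bin 10 came next with 43.9%, and its 118 origins found in all replicates were nearly as many as the 122 of bin 15 and the 125 of bin 16. In bin 3 only 4 of 56 were, or 7.14%. The median width of consensus origins was 10300 bases in bin 16 and 8700 in bin 15, against 3600 to 6200 bases in bins 1 to 9. The bin with the highest share in all replicates was thus also the one with the widest origins.

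Single windows and origins show the range on each arm. The 3 windows of 1 Mb with the most consensus origins all lay on the long arm, at 57000001 to 58000000 with 77, at 55000001 to 56000000 with 76 and at 65000001 to 66000000 with 71. The median window held 28 consensus origins on the short arm and 47 on the long arm, and no window with a call was without one. The longest stretch between neighbouring consensus origins was 891600 bases on the short arm, from 14349001 to 15240600, and 925200 bases on the long arm, from 31285201 to 32210400. These stretches were not free of calls. The one on the short arm held 58, 8 and 47 summits in replicates 1, 2 and 3, and the one on the long arm held 50, 8 and 20.

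Consensus origins of all 3 replicates were also ordered on each arm by the mean rank of their strongest summit, whose score was taken to be −log10 of the q-value. On the long arm the first lay from 41391201 to 41402000, and its strongest summits scored 99.1, 68.1 and 103 in replicates 1, 2 and 3. Its close neighbour from 41376401 to 41386600 came second and scored 222, 47.6 and 69.8. The third lay from 59765201 to 59772400, with 23.5, 52.8 and 15.6. On the short arm the first lay from 7966801 to 7971000, scoring 27.9, 24.6 and 16.4. The second lay from 16302401 to 16311600, with 20.2, 39.5 and 8.98, and the third from 7754601 to 7761800, with 23.1, 32.7 and 7.91. The pair that ranked highest thus lay side by side on the long arm, in bin 9.

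The widest consensus origin of the long arm ran over 161000 bases, from 79944601 to 80105600, and merged 29 common regions of all 3 replicates. On the short arm the widest ran over 54200 bases, from 21198801 to 21253000, and merged 9. The first lay across bins 16 and 17, near the end of the chromosome, and the second in bin 5.

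**Figure D5:**
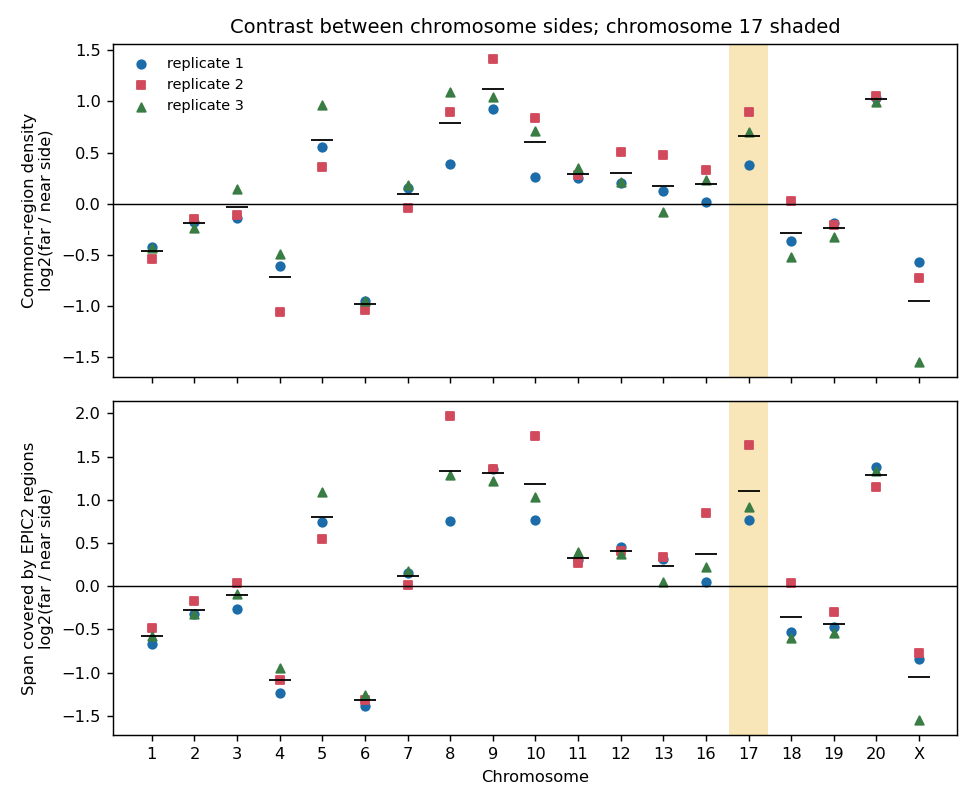
Contrast between the sides of 19 chromosomes as log2 of the far side over the near side, for common-region density (upper panel) and for the span covered by EPIC2 regions (lower panel), with 1 point per replicate, a black dash for the mean and chromosome 17 shaded. Chromosome 17 has means of 0.66 and 1.103 with all points above 0, and chromosomes 8, 9 and 20 lie above it in both panels.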

How the data were processed

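SNS-seq calls of 3 replicates of untreated HCT116 cells were used. According to the methods, the authors used Bowtie2 for alignment to hg19, Picard against duplicate reads, and MACS2 and EPIC2 for calling, both at a threshold of 0.1. No control library is named for the calling. The submitters' processing notes give Bowtie2 2.3.4.2, Picard 2.18.17 and MACS2 2.1.0.20151222. The deposited MACS2 values were taken to be −log10 q-values, as their lowest is just above 1. What the deposited EPIC2 score measures is not stated, and it served only to rank regions within a replicate. EPIC2 ends were taken as the last base of a 200-base step.

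The members and measures were chosen with earlier results of these data known. The chromosome was split at 24 Mb. A window counted towards density if any replicate had a call in it. limma 3.58.1 (R 4.3.3) fitted the mean over replicates across 19 chromosomes with at least 10 such windows on each side, or across bins with a mean of at least 10 summits, with a pseudocount of 0.5 calls and an adjusted p threshold of 0.05. On chromosome 13 the longest stretch without calls lay inside the long arm. Median widths tie on the grid, so some chromosomes had no spread between replicates, which limma offsets. Of 9 arm measures, 3 were added after seeing the data: the share of summits inside regions, the share of regions with a summit and the covered share. Named regions were the 3 top-scoring origins in all replicates, the widest origin and the longest stretch on each arm, and the 3 densest windows. Other bins are named after their values were seen. The functions were tested on simulated data. Python 3.11.15, numpy 2.4.6, pandas 2.3.3 and scipy 1.17.1 were used.

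The genome at hand is GRCh38, whose chromosome 1 of 248956422 bases is shorter than the last call at 249216371, so no sequence or gene was read from it.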

Additional observations from a re-analysis of the deposited data

How the results depend on the processing

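Arm values are log2 ratios of long to short arm, and every one kept its sign under each alternative run except the share of EPIC2 regions holding a summit. That share had a value of -0.10, which became 0.044 without replicate 2 and ranged from -0.22 to 0.044 on leaving out 1 replicate. On leaving out 1 replicate, common-region density ranged from 0.54 to 0.80, EPIC2 density from 0.49 to 0.93, the EPIC2-to-summit ratio from 0.11 to 0.49, the share of summits inside regions from 0.34 to 0.47 and the covered share from 0.84 to 1.27. EPIC2 density was 0.64 without the bin at 20 to 25 Mb and no longer passed. Width passed at 0.34 with means and 0.26 with common regions, and spacing passed at -0.61 with mean distances and -0.77 between edges. The mean distance is close to the inverse of common-region density, whose log2 ratio was 0.66, so its passing is not a separate result. The shares of chromosomes called by these alternatives are not given. Summit density passed under every alternative run. Leaving chromosome 13 out of the fit, chosen after seeing the data, changed no call.

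Bins called for density numbered 25 of 32 with bins of 2.5 Mb, a size at which there are more bins. Of these, 24 were higher and 1 was lower, whereas 0 of the 17 bins of 5 Mb were called lower. Of all bins of 2.5 Mb, 64.7% were called in either direction. Without replicates 1, 2 and 3 the counts were 11, 14 and 13 of 17, where 35.3%, 59.5% and 60.8% of all bins were called. The bins called also changed. Bin 11 was lost in each of these limma fits (adjusted p = 0.0712, 0.117 and 0.132). Bins 4 and 6 were lost without replicate 1 (limma adjusted p = 0.121 and 0.0793), and bin 7 was gained without replicate 2 (limma adjusted p = 0.0343). Bins called for the EPIC2-to-summit ratio ranged from 0 (without replicate 1 or 2) to 9 (without replicate 3), against 12 in all. Of all bins 2.03%, 0% and 50.3% were called without replicates 1, 2 and 3, against 57.5% with every replicate. Fewer samples were fitted there, and no other cause was tested. The long-arm share of consensus origins was 85.1% when an origin had to be in all 3 replicates, 80.7% under 50% reciprocal overlap, and 80.4% (without replicate 2) to 86.3% (without replicate 1) on leaving out 1 replicate. Common-region density was 0.54 without replicate 2 and 0.64 without replicate 3, and neither passed. Arm ratios were taken within each replicate and so are paired by it. For a comparison between groups of samples, no paired analysis was possible because the samples form 1 group. Read depth is unknown, so what it limits cannot be stated.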
